A study of Rattus norvegicus with 45 samples.

Results

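The data described here are the 6 kidney libraries of a rat study of the drug empagliflozin, chosen by the tissue label from 45 libraries in all. All came from male spontaneously hypertensive rats (SHR), an inbred strain whose blood pressure climbs without any drug or surgery, aged 8 weeks and with a body weight of 220 to 260 g. The empagliflozin arm received 10 mg/kg of the drug by gavage each day for 30 days (3 kidney libraries), and the vehicle arm received saline over the same period (3 kidney libraries). No normotensive strain was compared, so both arms share the hypertensive background. The labels do not state which part of the kidney was taken, or whether a library holds 1 rat. P-values therefore measure the spread between these libraries, some of which may be technical.

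Empagliflozin blocks SGLT2, the sodium-glucose cotransporter of the early proximal tubule, encoded by Slc5a2. Glucose and sodium that SGLT2 would have taken back then stay in the tubular fluid and travel down the nephron. The nephron runs from the glomerulus, whose podocytes hold the filter, through the proximal tubule, the loop of Henle and the distal convoluted tubule to the collecting duct. Each segment has its own transporters, so marker genes tell which segments a piece of kidney contained. In RNA from whole tissue, fewer cells of a type and less RNA per cell cannot be told apart. The comparison asks how the kidney transcriptome of treated rats differed from that of vehicle rats, described by nephron segment and by pathway.

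Levels are in FPKM, which divides the fragments of a gene by its transcript length and by the mapped fragments of the library. Differences are given as log2(FPKM + 1), empagliflozin minus vehicle, with the standard error of the limma fit, and p-values are two-sided, from limma. An adjusted p is Benjamini-Hochberg adjusted over all genes tested, and counts at an unadjusted p under 0.05 are given as description only. All 6 libraries carried kidney markers at high levels: Umod, which encodes the most abundant urinary protein and marks the thick ascending limb, had 2037, 3794 and 2235 FPKM in empagliflozin libraries 1 to 3 and 3596, 3668 and 3546 FPKM in vehicle libraries 1 to 3. The 2 arms did not form separate clusters. The first principal component of the log values carried 62.6% of the variance over 12848 genes, with scores of 21.5, -16.1 and 54 in the empagliflozin libraries and -36.3, -6.8 and -16.2 in the vehicle libraries. Empagliflozin library 2 thus lay among the vehicle libraries, and its closest partner was vehicle library 3 (r = 0.986 across genes, which are not independent replicates). The second component carried 15.2% of the variance and set vehicle library 2 apart, at a score of 31.8 against -12.4 to -2.1 in the other 5 libraries. That library held 147.4 FPKM over the uroplakins Upk1a, Upk2 and Upk3a, which line the urinary tract, against 0.64 to 1.45 FPKM in each of the other 5 libraries.

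**Figure D1:**
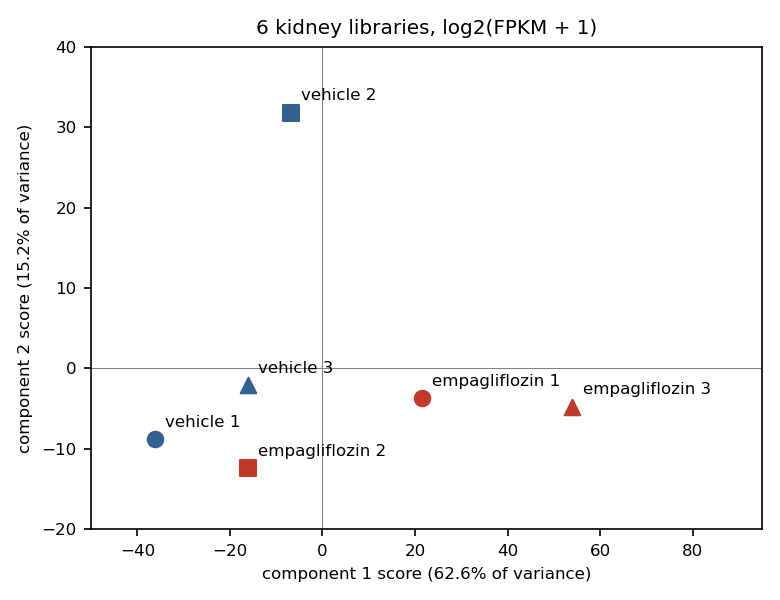
Scores of the 6 kidney libraries on the first 2 principal components of log2(FPKM + 1) over the genes tested; colours mark the arms and symbols the library number. Empagliflozin libraries 1 and 3 lie to the right at 21.5 and 54, empagliflozin library 2 lies at -16.1 beside the vehicle libraries, and vehicle library 2 stands alone at 31.8 on the vertical axis.

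Across the whole transcriptome no gene passed the threshold. Of 12848 genes tested, 0 (0%) had a Benjamini-Hochberg adjusted limma p under 0.05, and the smallest adjusted p was 0.131, for Spp1. The Benjamini-Hochberg procedure gave the next genes in order one shared adjusted p of 0.418, and every gene difference printed below without its own p has that value. At an unadjusted p under 0.05 there were 1504 genes (11.7%), of which 1088 (8.47%) were higher and 416 (3.24%) lower with empagliflozin. All 3 empagliflozin libraries lay beyond all 3 vehicle libraries for 2457 genes (19.1%), 1743 of them (13.6%) higher and 714 (5.56%) lower. An exact permutation test of 3 against 3 cannot go below p = 0.1, so no such test could pass for a single gene. The median difference over all genes was 0.10 rather than 0, and 66.8% of genes were higher with empagliflozin. Median-ratio scaling moved that median to 0.00 and divided the genes at p under 0.05 into 845 higher and 677 lower, so 55.5% were higher, against 72.3% in the unscaled values. Each list below is therefore read beside the all-gene median of 0.10. Where not repeated, the all-gene shares beside its counts are 66.8% above 0, and 8.47% higher and 3.24% lower at p under 0.05. Without empagliflozin library 2, which lay among the vehicle libraries on the first component, 636 genes passed an adjusted p under 0.05 (541 higher and 95 lower). Without library 2 of both arms, 573 did, and 408 genes were common to both counts, which is 64.2% of the first and 71.2% of the second. Both settings omit the treated library nearest the vehicle arm, which draws the arms apart by construction.

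**Figure D2:**
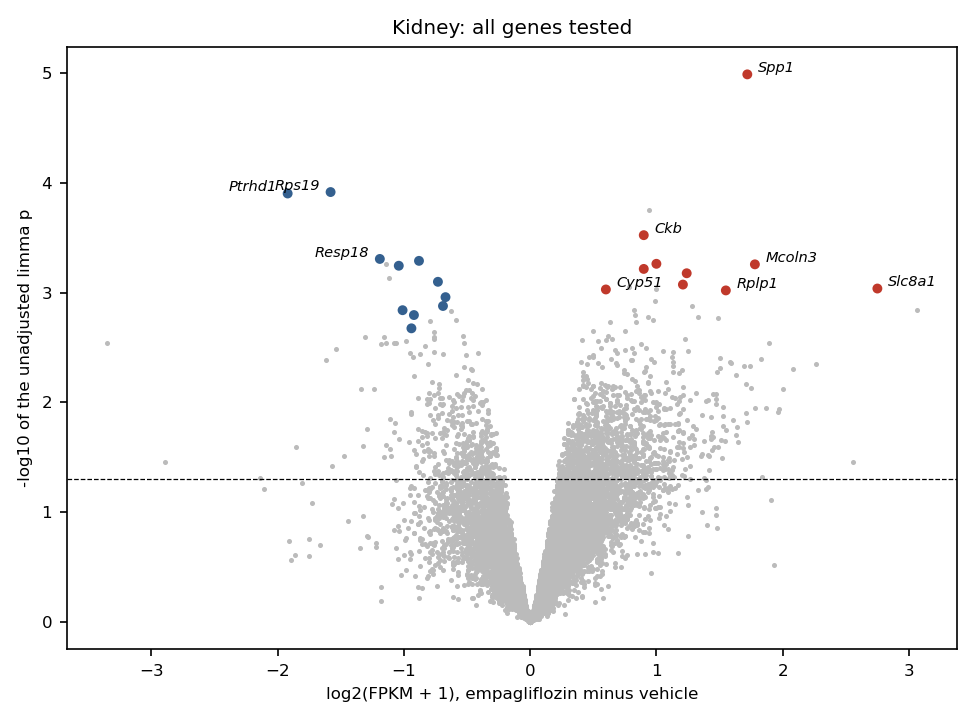
Difference on the log2(FPKM + 1) scale, empagliflozin minus vehicle, against the negative log10 of the unadjusted limma p for every kidney gene tested; red and blue points are genes the text names for a low p, higher and lower with empagliflozin, and the dashed line marks an unadjusted p of 0.05. Spp1 has the lowest p, at a difference of 1.72, and no gene passes after adjustment.

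Spp1 stood first among all genes. It encodes osteopontin, a secreted phosphoprotein made mainly by the loop of Henle and distal nephron in healthy kidney, which binds calcium crystals and integrins. It had 296, 269 and 376 FPKM in the empagliflozin libraries, against 83.2, 99.7 and 97.7 FPKM in the vehicle libraries. The lowest treated value, in library 2, was well above the highest vehicle value. The means were 313 ± 55.5 FPKM with empagliflozin and 93.5 ± 8.97 FPKM with vehicle (SD, n = 3 each), a ratio of 3.35, and the difference was 1.72 ± 0.15 (adjusted p = 0.131). Its adjusted p was 0.0473 under median-ratio scaling and 0.012 without empagliflozin library 2, but 0.288 without vehicle library 2. Over the 15 alternative settings it ranged from 0.012 to 0.75, and 3 of them gave a value under 0.05. The 250 bases before the Spp1 start are printed to show the sequence that precedes the gene that stood out most. They come from RefSeq on rat build GRCr8, chr14:5619805-5620054, minus strand, written 5′ to 3′, and capitals mark matches on either strand to the TATA box (searched as TATAAA), the CCAAT box (searched by its name) or the sterol motif (searched as CACNCCAC):
Spp1: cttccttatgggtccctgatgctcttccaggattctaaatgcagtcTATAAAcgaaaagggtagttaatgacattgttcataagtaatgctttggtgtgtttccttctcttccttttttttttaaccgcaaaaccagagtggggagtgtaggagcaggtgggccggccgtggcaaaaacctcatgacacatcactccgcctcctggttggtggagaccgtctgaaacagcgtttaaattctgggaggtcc
The window holds 1 TATAAA, whose near end lies 199 bases before the start, and no match to the other motifs. TATAAA occurs in 13.1% of 27457 rat upstream windows of the same length.

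Some genes of the cholesterol route had arms that did not overlap, though none passed after adjustment, and they were named for their low p or after their values were seen. Cyp51, which removes a methyl group from lanosterol on the way to cholesterol, had 20.96, 22.4 and 19.5 FPKM with empagliflozin and 14.3, 12.4 and 13.6 FPKM with vehicle, a difference of 0.60 ± 0.11. Hmgcs1, which makes the first committed intermediate from acetyl groups, had 11.3, 12.6 and 15.5 FPKM with empagliflozin and 8.32, 9.35 and 7.85 FPKM with vehicle, a difference of 0.56 ± 0.15. For both genes the arms did not overlap; empagliflozin library 2 was the highest treated library for Cyp51 and the middle one for Hmgcs1. Sqle, the squalene epoxidase, had 9.33, 10.9 and 8.5 FPKM with empagliflozin and 7.1, 7.24 and 7.27 FPKM with vehicle, without overlap (difference 0.36 ± 0.13). Idi1, an isomerase of the same route that was named after its values were seen, had 19.9, 18.8 and 16.1 FPKM with empagliflozin and 14.8, 13.98 and 15.1 FPKM with vehicle, a difference of 0.30 ± 0.12. Of the 21 tested genes of fatty acid and sterol synthesis, 16 were above 0, 5 were higher at p under 0.05, 0 were lower, and the median was 0.19 beside 0.10 for all genes. All treated libraries lay above all vehicle libraries for 9 of them (13.6% of all genes) and below for 1 (5.56% of all genes), and 5 were below 0. Without empagliflozin library 2 the median was 0.12, close to that of all genes. Fasn, Acly and Scd, fatty acid genes of the list, did not reach an unadjusted p under 0.05. The member with the lowest unadjusted limma p of the list (0.00018) is not reported here, so the genes named are not its whole signal.

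The windows before 3 of these sterol genes are shown because all 3 genes had every treated library above every vehicle library, the values for which they were chosen. Hmgcs1 lies at chr2:53382054-53382303 (plus strand), Idi1 at chr17:66547525-66547774 (minus strand) and Cyp51 at chr4:30991443-30991692 (plus strand), all RefSeq GRCr8, with the same capitals as above:
Hmgcs1: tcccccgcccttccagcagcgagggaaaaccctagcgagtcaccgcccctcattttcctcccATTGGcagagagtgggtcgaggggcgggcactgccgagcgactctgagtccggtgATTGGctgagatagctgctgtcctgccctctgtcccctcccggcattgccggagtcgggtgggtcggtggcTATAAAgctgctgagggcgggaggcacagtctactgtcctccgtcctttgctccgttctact
Idi1: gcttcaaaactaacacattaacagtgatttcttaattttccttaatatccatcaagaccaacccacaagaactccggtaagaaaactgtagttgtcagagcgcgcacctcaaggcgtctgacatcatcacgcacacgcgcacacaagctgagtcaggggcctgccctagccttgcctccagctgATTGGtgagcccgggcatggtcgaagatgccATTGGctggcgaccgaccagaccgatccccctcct
Cyp51: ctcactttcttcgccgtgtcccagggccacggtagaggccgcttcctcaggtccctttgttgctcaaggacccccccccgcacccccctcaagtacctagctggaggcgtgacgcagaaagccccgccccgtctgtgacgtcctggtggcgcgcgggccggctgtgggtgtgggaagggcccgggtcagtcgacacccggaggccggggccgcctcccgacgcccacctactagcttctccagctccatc
Hmgcs1 and Idi1 each hold 2 CCAAT boxes, read on the minus strand as ATTGG, a motif found in 34.3% of the windows. Hmgcs1 also has 1 TATAAA, which ends 57 bases before the start. None of these 3 windows holds CACNCCAC, which resembles the sterol regulatory element and occurs in 4.84% of windows. The table holds a window for 4 of the 5 genes looked up.

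The other genes with the lowest p among those higher with empagliflozin had several roles. Ckb, the brain-type creatine kinase that buffers ATP, had 169, 147 and 198 FPKM with empagliflozin and 87.9, 98.4 and 86.7 FPKM with vehicle (difference 0.90 ± 0.14). Fabp3, a carrier of fatty acids inside cells, had 239, 188 and 337 FPKM with empagliflozin and 95.3, 119 and 107 FPKM with vehicle (difference 1.21 ± 0.22). Stc1, which encodes the secreted hormone stanniocalcin, had 19.6, 24.1 and 35.8 FPKM with empagliflozin and 9.38, 11.1 and 10.4 FPKM with vehicle (difference 1.24 ± 0.21). In these 3 genes every treated library was above every vehicle library. Mcoln3, an endosomal cation channel, was 1.78 ± 0.30 higher, and Cyfip2, a regulator of actin assembly, 0.90 ± 0.15 higher. Slc8a1, the sodium-calcium exchanger, is described with its segment below.

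The genes with the lowest p among those lower with empagliflozin came from several processes. Ptrhd1, which belongs to the peptidyl-tRNA hydrolase family, had 5.46, 7.13 and 7.53 FPKM with empagliflozin and 18.8, 31.6 and 36.4 FPKM with vehicle (difference -1.92 ± 0.25). Resp18, an endocrine-type secretory protein, had 27.8, 43.4 and 25.6 FPKM with empagliflozin and 77.7, 71.5 and 70.4 FPKM with vehicle (difference -1.19 ± 0.20). Ccn1, a matrix-associated signalling protein of the CCN family, had 19.4, 29.1 and 32.02 FPKM with empagliflozin and 52.8, 49.7 and 49.1 FPKM with vehicle (difference -0.92 ± 0.18). The arms did not overlap in any of the 3. Ccn6, of the same family as Ccn1, was -1.04 ± 0.17, and Mmp11, a matrix metalloproteinase, -1.01 ± 0.20. Differences of Fam189b, Prr5, Fmnl1, Tmem150a and Rasl12 lay between -0.94 and -0.67.

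Rps19, Rps19l2 and Rplp1 encode or resemble ribosomal proteins and are uncertain, because reads of near-identical copies can be divided between them in counting. Rps19 had 50.8, 76.2 and 86.95 FPKM with empagliflozin and 189.7, 235 and 206 FPKM with vehicle (difference -1.58 ± 0.21), while its copy Rps19l2 had 333, 296 and 232 FPKM with empagliflozin and 135, 162 and 128 FPKM with vehicle (means 287 ± 50.9 with empagliflozin and 142 ± 18.1 with vehicle, SD, n = 3 each). Summed, the pair held 383.5, 371.9 and 319 FPKM with empagliflozin and 324.2, 397.2 and 334.8 FPKM with vehicle, so the arms overlapped. Rplp1 was 1.55 ± 0.28, and the 26 ribosomal protein genes of the list as a whole had a median of -0.03.

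Along the nephron, markers of the distal convoluted tubule and collecting duct lay above 0 and most markers of the proximal tubule below 0 with empagliflozin. The distal difference was larger in libraries 1 and 3 than in library 2. All 11 tested distal convoluted tubule genes were above 0 with a median of 1.43, and 7 had p under 0.05, where 8.47% of all genes did so in that direction. The mean log2 level of the list was 5.66, 4.47 and 6.38 in the empagliflozin libraries and 3.74, 4.13 and 4.24 in the vehicle libraries. Those levels did not overlap, though empagliflozin library 2 was close to the vehicle range. Without that library the median was 1.95 and 10 of 11 members passed an adjusted p under 0.05, beside 541 of 12977 genes called higher. Without library 2 of both arms 6 of 11 did, beside 476 of 12943. Both settings omit the treated library nearest the vehicle range, which widens the difference by construction. Without empagliflozin library 3 the median was 0.90, 6 members had p under 0.05 and 0 passed after adjustment, as was the case without any other single library except empagliflozin library 2. The first principal component carried a positive weight for all 11 members, beside 9053 of the 12848 genes tested. Other lists shared this, with all 12 endothelial and all 17 cell cycle genes positive, against 0 of 9 in the third part of the proximal tubule. The distal convoluted list, like these others, moved with the axis that set empagliflozin libraries 1 and 3 apart. The part that the sampled region of kidney plays in this was not tested.

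Calb1 had the largest difference of the segment. It encodes calbindin, which ferries calcium through distal cells, and had 796, 199.7 and 1106 FPKM in the empagliflozin libraries against 51.3, 64.5 and 87.2 FPKM in the vehicle libraries. Library 2 of the treated arm was the lowest of the 3 but still above each vehicle library. The difference was 3.06 ± 0.60, and 3.81 without that library (adjusted p = 0.00571). Slc8a1, which exports the calcium on the blood side, had 74, 23.5 and 99.1 FPKM with empagliflozin and 6.04, 6.79 and 10.03 FPKM with vehicle (difference 2.75 ± 0.50). Trpv5, the calcium channel on the urinary side, had 12.1, 3.06 and 17.02 FPKM with empagliflozin and 2.09, 3.11 and 3.05 FPKM with vehicle, so library 2 fell within the vehicle range (difference 1.41 ± 0.52). Klhl3, the adaptor that marks WNK kinases for degradation, had 12.8, 6.17 and 21.7 FPKM with empagliflozin and 1.8, 3.62 and 3.67 FPKM with vehicle, without overlap (difference 1.74 ± 0.43). Its substrate Wnk1 was 1.43 ± 0.49, and Stk39, the kinase that WNKs activate, 0.93 ± 0.29. Slc12a3, the thiazide-sensitive sodium chloride cotransporter on which this kinase chain acts, had 297, 69.8 and 657 FPKM with empagliflozin and 47.1, 104 and 129 FPKM with vehicle. The arms overlapped in library 2 and the difference of 1.47 ± 0.79 did not pass (adjusted p = 0.436).

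The collecting duct followed the same libraries. All 12 principal cell genes were above 0 with a median of 1.21, and 9 were higher at p under 0.05 (8.47% of all genes). The list level was 6.89, 5.28 and 6.97 with empagliflozin and 4.83, 5.33 and 5.22 with vehicle, so empagliflozin library 2 lay inside the vehicle range. Aqp4, a water channel of the blood-side membrane, had 41.8, 15.4 and 51.9 FPKM with empagliflozin and 6.6, 7.8 and 10 FPKM with vehicle (difference 1.89 ± 0.42). Avpr2, the vasopressin receptor that controls water uptake, had 62.7, 20.7 and 59.8 FPKM with empagliflozin and 14.9, 16.7 and 15.01 FPKM with vehicle (difference 1.41 ± 0.40). Hsd11b2, which shields the mineralocorticoid receptor from glucocorticoid, had 1348, 339 and 1335 FPKM with empagliflozin and 196, 331 and 314 FPKM with vehicle (difference 1.63 ± 0.54). In these genes treated library 2 was the lowest of its arm but above every vehicle library, for Hsd11b2 by a small margin. Aqp2, the vasopressin-regulated water channel, had 1204, 419 and 1189 FPKM with empagliflozin and 327, 443 and 368 FPKM with vehicle, with overlap (difference 1.16 ± 0.41). Scnn1a and Scnn1b, subunits of the epithelial sodium channel, were 1.36 ± 0.50 and 1.51 ± 0.52. Without empagliflozin library 2, 11 of the 12 principal cell genes passed an adjusted p under 0.05, beside 541 of 12977 genes called higher. The same number did without library 2 of both arms, beside 476 of 12943. Both settings omit the treated library that lay inside the vehicle range, which widens the difference by construction. Without any other single library 0 passed, the median lay between 0.92 and 1.30, and 2 to 7 genes had p under 0.05.

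All 12 intercalated cell genes, which secrete acid or base, were above 0 with a median of 0.74, but only 1 had p under 0.05 and none had arms apart. That gene, the ammonia transporter Rhcg, had 439.8, 148 and 511 FPKM with empagliflozin and 104, 189 and 157 FPKM with vehicle (difference 1.14 ± 0.48). Atp6v1b1, a proton pump subunit, had 222, 80.97 and 306 FPKM with empagliflozin and 53.5, 128 and 93.5 FPKM with vehicle (difference 1.03 ± 0.52, adjusted p = 0.426). The list level was 7.26, 5.99 and 7.77 with empagliflozin and 5.62, 6.70 and 6.40 with vehicle, where vehicle library 2 was the highest of its arm. The median was 0.36 without empagliflozin library 3 and 1.30 without empagliflozin library 2. Without library 2 of both arms it was 1.57 and 4 of the 12 genes passed an adjusted p under 0.05. Over all genes 476 of 12943 were called higher in that setting.

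The proximal tubule lay the other way. Of 16 tested genes of its first and second part, 15 were below 0 with a median of -0.48, 5 were lower at p under 0.05 (3.24% of all genes) and 7 had all treated libraries below all vehicle libraries (5.56% of all genes). The list level was 6.30, 6.37 and 6.24 with empagliflozin and 6.55, 7.03 and 6.68 with vehicle, without overlap and with treated library 2 beside the others. Hnf4a, the transcription factor that maintains proximal tubule identity, had 170, 222 and 111 FPKM with empagliflozin and 281, 277 and 280.3 FPKM with vehicle (difference -0.79 ± 0.24). Slc2a2 (GLUT2), which passes reabsorbed glucose to the blood, had 17.01, 13.1 and 12.5 FPKM with empagliflozin and 21.3, 24.9 and 17.4 FPKM with vehicle (difference -0.54 ± 0.17). Gatm, which makes the creatine precursor, had 226, 231 and 214 FPKM with empagliflozin and 296, 662 and 343 FPKM with vehicle (difference -0.86 ± 0.29). All 3 were lower in every treated library, and vehicle library 2 was the highest of its arm for Slc2a2 and Gatm. Slc34a1, the main phosphate transporter, had 1476, 1249 and 1078 FPKM with empagliflozin and 1590, 1993 and 1541 FPKM with vehicle (difference -0.43 ± 0.20). Lrp2, the endocytic receptor megalin, had 135, 177 and 84.4 FPKM with empagliflozin and 200.5, 152 and 192 FPKM with vehicle, with overlap (difference -0.51 ± 0.27, adjusted p = 0.433), and its partner cubilin, Cubn, differed by -0.24 ± 0.42 (adjusted p = 0.766). Without vehicle library 2 the median was -0.32 and 2 genes were lower at p under 0.05, and without empagliflozin library 3 they were -0.40 and 2. The exception above 0 was Slc5a2, the drug target, described below.

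All 9 tested genes of the third part of the proximal tubule were below 0, with a median of -0.61, yet 0 had p under 0.05. The list level was 8.28, 8.72 and 7.31 with empagliflozin and 8.92, 8.41 and 8.71 with vehicle. Treated libraries 1 and 3 were below every vehicle library, and treated library 2 was above vehicle library 2. Without empagliflozin library 3 the median was -0.20, and without empagliflozin library 2 it was -0.90 with 6 genes lower at p under 0.05. Slc7a13, a cystine and aspartate transporter of this part, had 1183, 1982 and 385 FPKM with empagliflozin and 2369, 1026 and 1894 FPKM with vehicle (difference -0.78 ± 0.61, adjusted p = 0.527). Acy3, an aminoacylase, had 893, 1092 and 489.8 FPKM with empagliflozin and 1439, 1174 and 1226 FPKM with vehicle (difference -0.70 ± 0.30), and Ggt1, the brush border glutamyl transferase, differed by -0.69 ± 0.42 (adjusted p = 0.458).

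The thick ascending limb list lay near the all-gene median, while the arms of its channel Kcnj1 did not overlap. Its 9 tested genes had a median of 0.03, below the all-gene median and negative under median-ratio scaling (-0.09). Kcnj1 (ROMK), the potassium channel that recycles potassium for the sodium-potassium-chloride cotransporter, had 236, 190.5 and 319 FPKM with empagliflozin and 114, 126 and 125 FPKM with vehicle. Every treated library was above every vehicle library, and the difference was 0.99 ± 0.19. Kcnj1 is also made in principal cells. The cotransporter itself, Slc12a1, had 117, 364 and 192 FPKM with empagliflozin and 210.1, 192 and 226 FPKM with vehicle, a difference of -0.05 ± 0.37 (adjusted p = 0.948); treated library 2 was the highest of all 6 and library 1 the lowest. Umod differed by -0.48 ± 0.29 (adjusted p = 0.458), and Egf, the growth factor of the distal nephron, by 0.47 ± 0.32 (adjusted p = 0.481). The 4 tested thin limb genes had a median of 0.04 and the 11 of the inner medulla a median of 0.07, both near the all-gene value and both below 0 under median-ratio scaling (-0.06 and -0.05).

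In the glomerulus, all 15 podocyte genes were above 0 with a median of 0.97. Of these, 6 were higher at p under 0.05 (8.47% of all genes), but the arms of most members overlapped. The list level was 3.93, 3.59 and 4.65 with empagliflozin and 2.77, 3.18 and 3.66 with vehicle, so vehicle library 3 was above treated library 2. Podxl, which encodes podocalyxin and keeps the filtration slits open, had 26.1, 18.7 and 54.4 FPKM with empagliflozin and 7.35, 11.1 and 19.6 FPKM with vehicle (difference 1.27 ± 0.45). Nphs1, the slit protein nephrin, had 15.2, 8.6 and 27.5 FPKM with empagliflozin and 3.55, 6.78 and 11.9 FPKM with vehicle (difference 1.09 ± 0.49), and Ptpro, a phosphatase of the podocyte surface, differed by 1.49 ± 0.52. Without empagliflozin library 2 the median was 1.35 and 0 of the 15 genes passed an adjusted p under 0.05. Without empagliflozin library 3 the median was 0.56, and leaving out that library, vehicle library 1 or vehicle library 2 left 0 genes with p under 0.05. Of the 6 genes of the capsule that surrounds the glomerulus, 3 were above 0 and 3 below, and Cav2, a caveolin, had 54.7, 16.6 and 80.03 FPKM with empagliflozin and 8.71, 14.5 and 13.8 FPKM with vehicle (difference 1.72 ± 0.54).

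**Figure D3:**
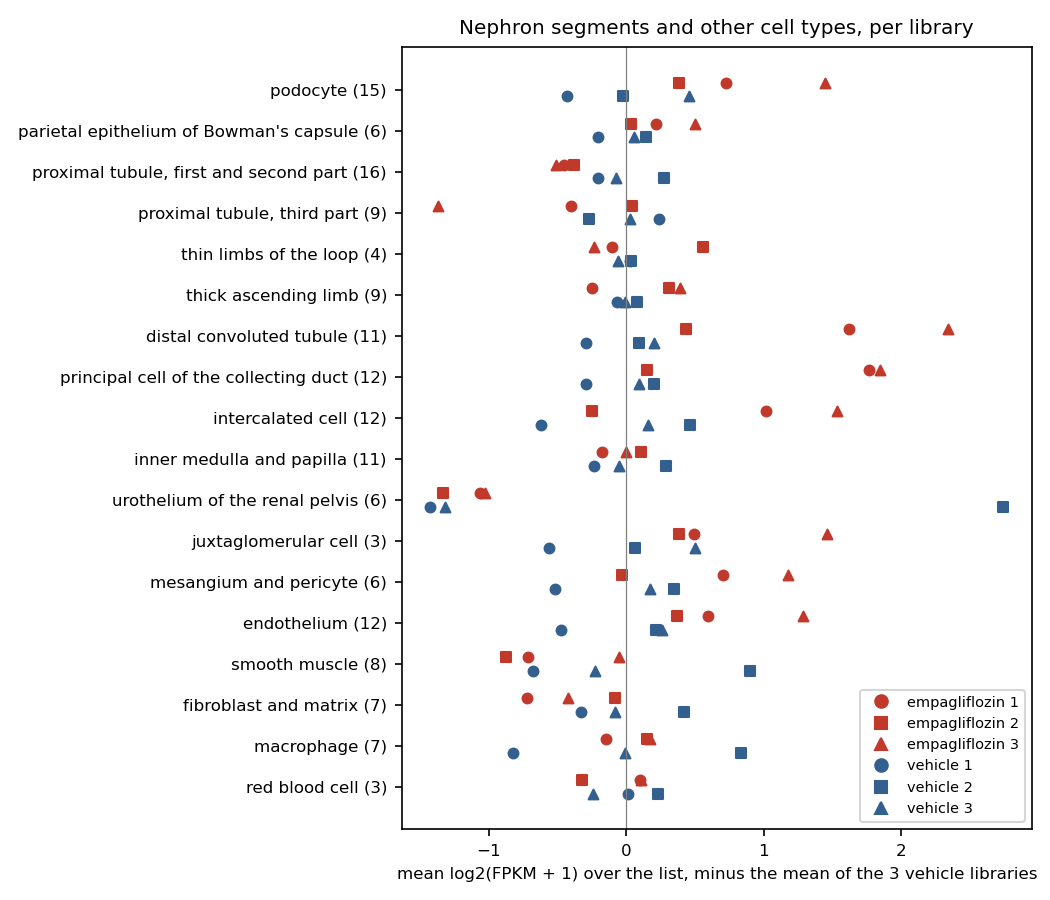
Mean log2(FPKM + 1) of each list of segment or cell type markers in each kidney library, minus the mean of the 3 vehicle libraries; red points are empagliflozin, blue points vehicle, symbols mark the library number, and brackets give the genes tested. Distal and collecting duct lists are highest in empagliflozin libraries 1 and 3, the early proximal list is lowest in all 3 empagliflozin libraries, and the urothelium list is high in vehicle library 2.

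Among cells outside the tubule, endothelial genes lay above 0 and most muscle and matrix genes below 0, with no gene past the adjusted threshold. All 12 endothelial genes were above 0 with a median of 0.63. Of these, 6 were higher at p under 0.05 (8.47% of all genes) and 7 had arms apart (13.6%). Without empagliflozin library 3 the median was 0.36 and 2 had p under 0.05. The list level was 3.97, 3.74 and 4.66 with empagliflozin and 2.90, 3.59 and 3.63 with vehicle, without overlap. Kdr, the main receptor for vascular endothelial growth factor, had 11.1, 7.04 and 21.7 FPKM with empagliflozin and 2.53, 4.7 and 5.05 FPKM with vehicle (difference 1.39 ± 0.40). Eng, a co-receptor of transforming growth factor beta, differed by 0.99 ± 0.30, and Ehd3, a marker of glomerular endothelium, by 1.28 ± 0.43. The 6 mesangial and pericyte genes were all above 0 with a median of 0.71, which was 0.37 without empagliflozin library 3. Of the 8 smooth muscle genes 7 were below 0 with a median of -0.49, and without vehicle library 2, which had the most of them, that median was -0.16. The 7 tested matrix genes had a median of -0.43, which was -0.05 without vehicle library 2, so it too rests on that library. Among them Col1a2, a chain of type I collagen, had 0.04, 0 and 1.1 FPKM with empagliflozin and 1.61, 2.87 and 1.82 FPKM with vehicle (difference -1.24 ± 0.33), and Dcn, which encodes decorin, had 7.28, 47.3 and 3 FPKM with empagliflozin and 32.2, 28.4 and 32.1 FPKM with vehicle (adjusted p = 0.441).

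Markers of neighbouring tissue varied by library. The 8 urothelial genes summed to 199.6, 100.7 and 242.6 FPKM with empagliflozin and 73.5, 350.8 and 91.3 FPKM with vehicle. Most of that sum outside vehicle library 2 was the keratin Krt7. It had 196.4, 98.1 and 239.7 FPKM with empagliflozin and 71.1, 149.2 and 88.5 FPKM with vehicle. Outside vehicle library 2 the uroplakins Upk1a, Upk2 and Upk3a together held only 0.64 to 1.45 FPKM per library. Upk2 alone was at 0, 0 and 0.33 FPKM with empagliflozin and 0, 56.7 and 0.1 FPKM with vehicle. The 10 white fat genes summed to 195.8, 211.5 and 163.2 FPKM with empagliflozin and 183.3, 254.4 and 176.6 FPKM with vehicle. Fabp4, the fatty acid carrier of fat cells and endothelium, had 3.07, 8.57 and 1.8 FPKM with empagliflozin and 3.23, 44.1 and 2.76 FPKM with vehicle. Vehicle library 2 was therefore the highest for urothelium and fat, and no marker of either list was at 0 in all 6 libraries. Lpl, a lipase of the fat list, had 24.99, 46.3 and 35.5 FPKM with empagliflozin and 22.2, 20.7 and 20.4 FPKM with vehicle (difference 0.69 ± 0.21). Macrophage genes had a median of 0.08 (-0.37 without vehicle library 1 and 0.43 without vehicle library 2), and 10 of the 12 lymphocyte genes were too low to test.

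Most sugar transporters, a list that includes the drug target, lay below 0. Of 10 tested, 7 were below 0 (33.2% of all genes) and 3 above, and 2 were above the all-gene median. Slc5a2, the target itself, was low in every library, at 0.6, 1.17 and 5.75 FPKM with empagliflozin and 0.58, 3.54 and 1.45 FPKM with vehicle, a difference of 0.14 ± 0.60 (adjusted p = 0.909) whose sign turned under quantile normalization (-0.031). The spread within each arm was larger than the difference. Slc5a1 (SGLT1), which takes up glucose further down the proximal tubule, had 12.04, 19.7 and 7.9 FPKM with empagliflozin and 17.8, 13.1 and 12.8 FPKM with vehicle (difference -0.20 ± 0.30, adjusted p = 0.733). Slc5a9, a mannose-preferring relative, differed by -0.82 ± 0.38. Slc2a1 (GLUT1), the glucose uniporter of distal segments, had 54.7, 43.3 and 49.2 FPKM with empagliflozin and 45.7, 38.8 and 39.7 FPKM with vehicle (difference 0.24 ± 0.12, adjusted p = 0.427). Of 10 tested members 1, the Slc2a2 described above, had p under 0.05, and the list median was -0.19 (-0.41 without empagliflozin library 2 and -0.05 without empagliflozin library 3).

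Gluconeogenesis and glycolysis genes lay on opposite sides of the all-gene median. Of 9 tested gluconeogenesis genes 6 were below 0 with a median of -0.30, 4 were lower and 2 higher at p under 0.05. The lowest p of the list was that of Hnf4a, the transcription factor already counted in the early proximal list. Pck1, the rate-limiting carboxykinase, had 372, 279 and 346 FPKM with empagliflozin and 443, 965 and 484 FPKM with vehicle (difference -0.84 ± 0.30). G6pc, the phosphatase that releases glucose, had 46.1, 42.4 and 56.99 FPKM with empagliflozin and 53.3, 159.5 and 59.6 FPKM with vehicle (difference -0.72 ± 0.40, adjusted p = 0.44). In both genes vehicle library 2 was the highest of all 6, and the arms overlapped for G6pc. Without that library the difference was -0.49 for Pck1 and -0.22 for G6pc, the list median was -0.22, and 2 genes were lower at p under 0.05. Leaving out empagliflozin library 3 instead gave 1 lower gene. Pck2, the mitochondrial form of the carboxykinase, was 0.43 ± 0.14, and Ldhb, the lactate dehydrogenase subunit of aerobic tissue, 0.79 ± 0.25.

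Of 18 glycolysis genes 16 were above 0 (66.8% of all genes) with a median of 0.40. At p under 0.05, 8 were higher (8.47% of all genes), and 6 of the 18 had arms apart (13.6% of all genes). The list level was 6.58 and 6.65 in empagliflozin libraries 1 and 3. Empagliflozin library 2 lay inside the vehicle range of 5.98 to 6.23. Under median-ratio scaling 13 of 18 were above 0. When single libraries were left out, 5 to 11 had p under 0.05. Pfkp, the platelet-type phosphofructokinase, had 21.5, 18.6 and 28.98 FPKM with empagliflozin and 11.1, 13.2 and 12.5 FPKM with vehicle (difference 0.84 ± 0.17). Pkm, the pyruvate kinase of most non-hepatic cells, had 290.5, 197 and 322 FPKM with empagliflozin and 140.4, 167 and 157 FPKM with vehicle (difference 0.77 ± 0.19). Hk1 and Pgk1, a hexokinase and a phosphoglycerate kinase, were 0.50 ± 0.13 and 0.55 ± 0.15, and the arms did not overlap for any of the 4. In kidney, glycolysis runs mainly in the distal nephron and gluconeogenesis in the proximal tubule, so these lists share cells with the segment lists above. The part of the segment markers in these differences was not tested.

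Fat burning and ketone genes showed no shared direction. The 27 tested genes had a median of -0.09, with 3 higher and 1 lower at p under 0.05 (8.47% and 3.24% of all genes). Bdh1, which interconverts the ketone bodies, had 36.3, 32.02 and 39.8 FPKM with empagliflozin and 26.7, 25.8 and 25.4 FPKM with vehicle (difference 0.45 ± 0.11). Cpt2, which hands fatty acids to the mitochondrial matrix, was 0.36 ± 0.14, and Acot2, a mitochondrial thioesterase, -0.27 ± 0.10. Respiratory chain and ATP synthase genes had small differences of one sign: 25 of 26 were above 0 (66.8% of all genes) with a median of 0.18. Of these, 6 were higher at p under 0.05 (8.47%) and 12 had arms apart (13.6%). With single libraries left out 1 to 5 had p under 0.05. Under median-ratio scaling 20 of 26 were above 0 with a median of 0.06. Cox7b, a subunit of cytochrome oxidase, differed by 0.61 ± 0.19 and Uqcrc1, of complex III, by 0.29 ± 0.10.

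**Figure D4:**
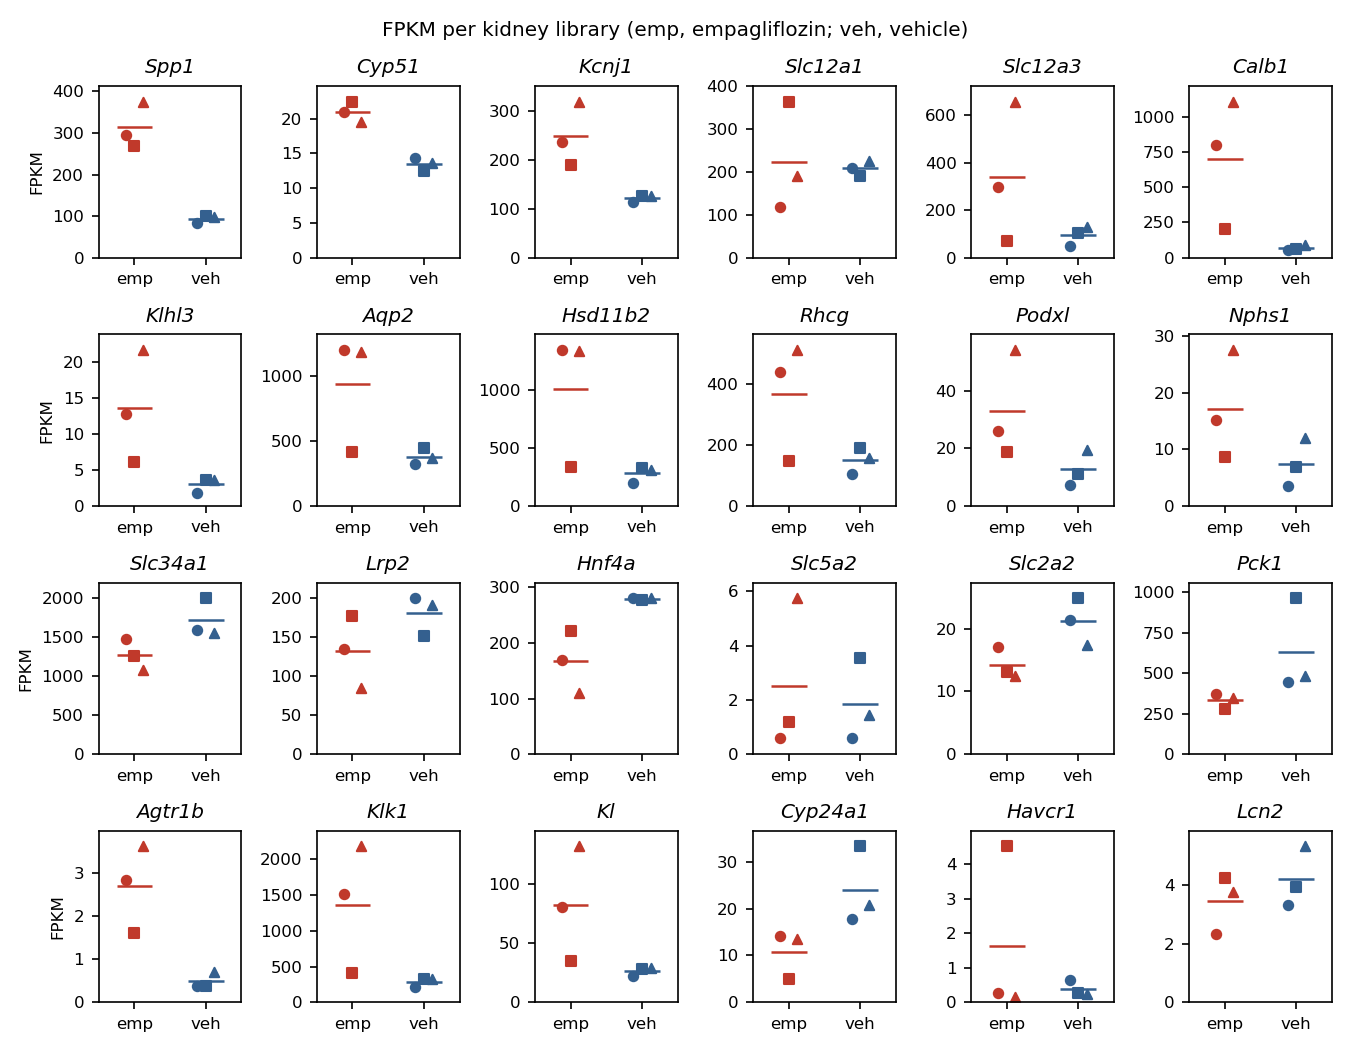
FPKM of 24 genes in each kidney library, empagliflozin to the left of vehicle in each panel, with the library number as symbol and the arm mean as a line; each vertical axis starts at 0 and has its own range. Spp1, Cyp51 and Kcnj1 are higher in all 3 empagliflozin libraries, Hnf4a, Slc2a2 and Pck1 are lower in all 3, and for Calb1, Aqp2, Hsd11b2, Rhcg and Klk1 empagliflozin library 2 is the lowest of its arm.

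Of 27 sodium transport genes 18 were above 0, near the 66.8% of all genes, with a median of 0.28. At p under 0.05, 7 were higher (8.47% of all genes) and 0 lower (3.24%). Slc9a3 (NHE3), the proximal sodium-proton exchanger, had 18.2, 34.8 and 21.8 FPKM with empagliflozin and 26.4, 35.1 and 30.4 FPKM with vehicle (difference -0.33 ± 0.24, adjusted p = 0.504). The median was 0.15 without empagliflozin library 3 and 0.44 without empagliflozin library 2, and 2 to 12 genes were higher at p under 0.05 with single libraries left out. Members with p under 0.05 included the distal genes Klhl3, Wnk1, Stk39 and the 3 subunits of the epithelial sodium channel.

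Potassium, magnesium and calcium genes had the highest median of the pathway lists, at 0.79 over 17 tested genes. The list shares members with the distal convoluted list, among them Slc8a1 and Kcnj10, so it is not a separate result. At p under 0.05, 10 were higher (8.47% of all genes) and 1 lower (3.24%). Without empagliflozin library 3 the median was 0.52, and 6 to 11 were higher with single libraries left out. Kcnj16, a potassium channel subunit of the blood-side membrane, had 199.6, 192 and 225 FPKM with empagliflozin and 158, 143 and 159.7 FPKM with vehicle (difference 0.42 ± 0.11), and its partner Kcnj10 differed by 1.47 ± 0.40. Kl (klotho), the distal co-receptor for the phosphate hormone FGF23, had 80.3, 35.1 and 132 FPKM with empagliflozin and 22, 27.9 and 29.3 FPKM with vehicle (difference 1.43 ± 0.43). The 1 lower gene was Cyp24a1, the enzyme that breaks down active vitamin D, at 14.2, 4.94 and 13.4 FPKM with empagliflozin and 17.8, 33.2 and 20.7 FPKM with vehicle (difference -1.14 ± 0.40). For Cyp24a1, treated library 2 was the lowest of all 6, unlike its place in the distal lists.

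Of 11 tested water and urea genes 3 were higher at p under 0.05, Aqp4, Avpr2 and Aqp2, with a list median of 0.53. All 3 are also counted in the principal cell list above. Of 12 acid and ammonia genes 3 were higher and 1 lower, with a median of 0.54. Car2, the cytosolic carbonic anhydrase, had 415, 341 and 445 FPKM with empagliflozin and 265, 289 and 293 FPKM with vehicle (difference 0.50 ± 0.14). The water median was 0.98 without empagliflozin library 2, and the acid median 0.35 without empagliflozin library 3. The lower gene was Pck1, which also serves ammonia formation.

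Organic ion transporters, which sit mainly in the proximal tubule and move drugs and metabolites, lay mostly below 0: 14 of 16 were below 0 with a median of -0.50, and 4 had p under 0.05. Without empagliflozin library 3 the median was -0.18 with 1 gene lower at p under 0.05, and the count was also 1 when vehicle library 2 was left out. Slc22a5, the carnitine transporter, had 88.5, 66.8 and 61.5 FPKM with empagliflozin and 96.2, 123 and 95.01 FPKM with vehicle (difference -0.54 ± 0.17). Slc22a6 (OAT1), the organic anion exchanger, had 305, 265 and 228 FPKM with empagliflozin and 329, 439.8 and 328 FPKM with vehicle (difference -0.45 ± 0.17). Slco1a1, an organic anion polypeptide, differed by -0.76 ± 0.30. Amino acid transporters had a median of -0.36 (-0.60 without empagliflozin library 2 and -0.12 without empagliflozin library 3), with the proximal Slc7a9 at -0.58 ± 0.19 and Slc7a8 at 1.35 ± 0.50.

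**Figure D5:**
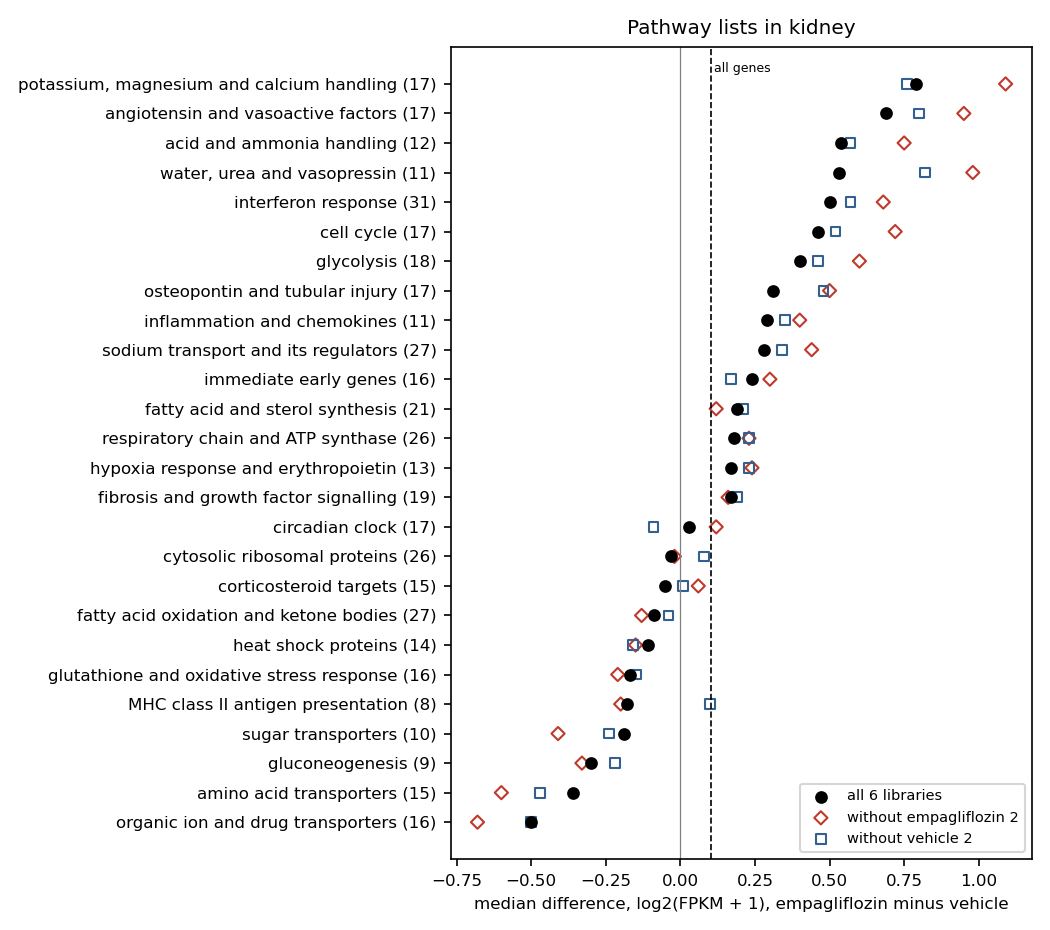
Median difference over each pathway list on the log2(FPKM + 1) scale, empagliflozin minus vehicle; black points use all 6 libraries, red diamonds leave out empagliflozin library 2, blue squares leave out vehicle library 2, brackets give the genes tested and the dashed line marks the median of all genes. Potassium, magnesium and calcium handling has the highest median at 0.79 and organic ion transport the lowest at -0.50.

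Genes of the angiotensin system and other vasoactive factors lay mostly above 0. Of 17 tested genes 14 were above 0 (66.8% of all genes) with a median of 0.69. At p under 0.05, 9 were higher (8.47% of all genes) and 0 lower. With single libraries left out 3 to 11 were higher at p under 0.05. Agtr1b, an angiotensin receptor of rodents, had 2.85, 1.62 and 3.63 FPKM with empagliflozin and 0.38, 0.38 and 0.7 FPKM with vehicle (difference 1.28 ± 0.25). Klk1, tissue kallikrein of the connecting tubule, which releases kinins, had 1510, 412 and 2182 FPKM with empagliflozin and 216, 329 and 322 FPKM with vehicle (difference 1.96 ± 0.58). Ptgs1, a prostaglandin synthase, differed by 0.82 ± 0.28. For Agtr1b, Klk1 and Ptgs1 the arms did not overlap, and treated library 2 was the lowest of its arm. Below 0 lay Agt, the precursor of angiotensin, at -0.59 ± 0.33 (adjusted p = 0.441), and the converting enzyme Ace at -0.60 ± 0.39 (adjusted p = 0.473).

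Spp1 apart, injury markers did not share a direction. Of 17 tested genes 2 were higher and 2 lower at p under 0.05, with a median of 0.31 (0.10 without vehicle library 1 and 0.50 without empagliflozin library 2). Havcr1 (KIM-1), the usual marker of proximal injury, had 0.27, 4.52 and 0.15 FPKM with empagliflozin and 0.66, 0.26 and 0.24 FPKM with vehicle (adjusted p = 0.634), where treated library 2 alone was above 1 FPKM. Lcn2, the distal injury marker NGAL, had 2.34, 4.26 and 3.78 FPKM with empagliflozin and 3.32, 3.95 and 5.33 FPKM with vehicle (difference -0.23 ± 0.23, adjusted p = 0.614). Sox9, which marks regenerating tubule, had 23.02, 37.5 and 12.7 FPKM with empagliflozin and 36.1, 42.9 and 49.2 FPKM with vehicle (difference -0.90 ± 0.35), and the keratin Krt19 differed by -0.88 ± 0.36. Anxa2, a membrane-binding annexin, was the second higher gene, at 43.2, 44.9 and 57.2 FPKM with empagliflozin and 28.2, 38.97 and 30.9 FPKM with vehicle (difference 0.56 ± 0.16).

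Interferon response genes were nearly all on one side, though treated library 2 lay inside the vehicle range. The list level was 3.29, 2.70 and 3.36 with empagliflozin and 2.47, 2.87 and 2.64 with vehicle. Of 31 tested genes 29 were above 0 (66.8% of all genes) with a median of 0.50. At p under 0.05, 7 were higher (8.47% of all genes) and 1 lower (3.24%). With single libraries left out 2 to 20 were higher. Stat2, a transcription factor of the response, had 14.9, 12.9 and 17.7 FPKM with empagliflozin and 9.48, 11.7 and 10.7 FPKM with vehicle (difference 0.47 ± 0.15), and Bst2, which tethers budding virus, differed by 0.95 ± 0.29. Il18, a cytokine of the inflammation list, had 16.2, 8.93 and 26.2 FPKM with empagliflozin and 2.4, 6.18 and 8.7 FPKM with vehicle (difference 1.43 ± 0.48); the list median was 0.29 (0.09 without empagliflozin library 3 and 0.40 without empagliflozin library 2). MHC class II genes had a median of -0.18, whose sign rests on 1 library: without vehicle library 2 it was 0.10, with 5 of 8 genes above 0.

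All 17 tested cell cycle genes were above 0, also under median-ratio scaling, with a median of 0.46. Of these, 9 were higher at p under 0.05 (8.47% of all genes) and 9 had arms apart (13.6%). With single libraries left out 3 to 12 had p under 0.05. Most were low. Top2a, the topoisomerase of dividing cells, had 1.88, 0.87 and 2.22 FPKM with empagliflozin and 0.38, 0.44 and 0.26 FPKM with vehicle (difference 0.93 ± 0.24). Cdk1, the mitotic kinase, had 4.4, 2.02 and 3.48 FPKM with empagliflozin and 1.2, 1.75 and 0.83 FPKM with vehicle (difference 0.91 ± 0.27), and Mcm6, a replication helicase subunit, differed by 0.67 ± 0.22. Pcna, the replication clamp, which is made at a higher level, had 34.7, 34.1 and 38.6 FPKM with empagliflozin and 29.2, 29.8 and 27.7 FPKM with vehicle (difference 0.30 ± 0.10).

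Clock, stress and growth factor lists had medians between -0.17 and 0.24, beside 0.10 for all genes. Leaving out single libraries turned the sign of the clock median (-0.18 without empagliflozin library 3 and 0.12 without empagliflozin library 2) and of the heat shock median (-0.26 without vehicle library 1 and 0.04 without vehicle library 3). Of 17 clock genes 2, Hlf at -0.48 ± 0.13 and Bhlhe40 at -0.30 ± 0.12, were lower and none higher at p under 0.05. Among immediate early genes Fos was 0.69 ± 0.19 and Myc -0.78 ± 0.25, and the list median was 0.24. Among 14 heat shock genes Hspa8, a constitutive chaperone, was the 1 lower gene at -0.58 ± 0.22. Catalase, Cat, had 602, 793 and 428 FPKM with empagliflozin and 965, 828 and 898 FPKM with vehicle (difference -0.60 ± 0.23), in a list of 16 oxidative stress genes with a median of -0.17. Of 19 fibrosis genes 2 were higher at p under 0.05 (8.47% of all genes). These were the receptor Tgfbr2 at 0.74 ± 0.22 and the basement membrane collagen Col4a1 at 0.40 ± 0.15. Hypoxia response genes had a median of 0.17, which was 0.05 under median-ratio scaling.

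The kidney difference was also set against the difference in the 6 other tissues with both arms (lung, brain, aorta, both kinds of fat and the libraries labelled V, whose tissue label and series design disagree) in 1 model of 42 libraries. At an adjusted p under 0.05 the kidney difference departed from the mean of the other tissues for 150 of 12848 genes (1.17%), being more positive for 95 (0.739%) and more negative for 55 (0.428%). The model uses 1 spread per gene over all tissues. For 144 of the 150 genes the kidney libraries spread more than those of the other tissues, 103 had a mean under 1 FPKM there, and in the kidney libraries alone 0 genes passed. Mcoln3 differed by -0.10 in the other tissues, a kidney excess of 1.88 ± 0.19 (adjusted p = 3.67e-07). For Kcnj1 the excess was 0.94 ± 0.14 (adjusted p = 0.000136) and for Klhl3 1.76 ± 0.26 (adjusted p = 0.000161). Cyp24a1 and Hnf4a were the named genes of vitamin D breakdown and proximal identity that departed downwards, by -1.15 ± 0.21 (adjusted p = 0.00219) and -0.81 ± 0.16 (adjusted p = 0.00518). Spp1 did not pass (mean of the other tissues -0.68, kidney excess 2.41 ± 1.42, adjusted p = 0.654). With a pseudocount of 0.1 in place of 1 only 11 of the 150 passed, and of Mcoln3, Kcnj1, Klhl3, Cyp24a1 and Hnf4a only Mcoln3 did (adjusted p = 0.022). Without the aorta 295 genes passed and without the libraries labelled V 90 did; without empagliflozin library 2 of the kidney 783 passed, and without library 3 43 did.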

How the data were processed

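Per the labels' protocols, TRIzol extracts of total RNA were read on a BGISEQ-500 (1 end, 50 bases). HISAT2 2.0.4, Bowtie2 2.2.5 and Rnor_6.0 are named in the submitters' processing notes, without a counting program. The deposited values are FPKM per gene, made by the authors for each library. Read totals are unknown, so no counting interval is given; FPKM summed to 544172 to 585869 over the genes of each kidney library.

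Values were taken as log2(FPKM + 1), for the 12848 of 20794 genes that averaged 1 FPKM or more in either kidney arm. Low genes change more than this scale shows. The 3 empagliflozin and 3 vehicle libraries were compared with limma 3.58.1 in R 4.3.3 (trend, Benjamini-Hochberg adjustment over all tested genes, threshold 0.05). An arm by tissue term over 42 libraries compared kidney with other tissues. Lists (50, of which 10 nephron segments) are described by counts and medians, with no set test. The lists and members were chosen with earlier results of these data known. Genes were named by rule: the 12 lowest p per direction with a mean of at least 5 FPKM, up to 4 per list, segment markers and a fixed panel; some genes the rule selects are not reported here. Upstream sequences are from RefSeq, GRCr8, in which 92 of the 117 named genes were found by symbol. Alternatives were other scaling (median-ratio, quantile), another pseudocount (0.1), no filter or a mean of at least 5 FPKM, robust empirical Bayes, all tissues in 1 fit, a replicate block and leaving out each library. The omission of library 2 of both arms was chosen after seeing the data.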

Additional observations from a re-analysis of the deposited data

Results flagged for a closer look

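The kidney difference departed from the mean difference of the 6 other tissues, at a limma adjusted p under 0.05, for 25 of the 117 genes named. Over all genes tested it did so for 150 of 12848 (1.17%). Many of the 117 were named for a low kidney p or after their values were seen. The contrast reuses that kidney difference, so their count is no support. The filter on level used the kidney alone: 15 of the 25 averaged under 1 FPKM in the other tissues, where little difference can appear. For 22 the kidney libraries spread more. The model shares 1 spread over all tissues: for Trpv5 the SD was 0.817 in kidney and 0.019 elsewhere, and the SE 0.27 in the model and 0.52 in kidney alone. With a pseudocount of 0.1, 2 of the 25 passed, Mcoln3 and Rplp1. Values are the excess of kidney on the log2(FPKM + 1) scale. Calcium-handling genes were more positive in kidney by 2.83 for Calb1, 3.09 for Slc8a1 and 1.40 for Trpv5. For the potassium channel Kcnj1 the excess was 0.94, and for the adaptor Klhl3 1.76. For collecting duct genes it was 1.76 for Aqp4, 1.42 for Avpr2, 1.62 for Hsd11b2, 1.03 for Fxyd4 and 1.12 for Rhcg. For Klk1 it was 1.88 and for Kl 1.33, the genes of kallikrein and klotho.

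Nphs1 of podocytes was more positive by 1.14. Cav2, a member of the capsule list, was more positive by 1.57 but averaged 86.9 FPKM in the other tissues. Of that list, 3 genes were above 0 in kidney and 3 below. The endosomal channel Mcoln3 had an excess of 1.88, Top2a of dividing cells one of 1.14, and Rplp1, uncertain for its copies, one of 1.68. Genes more negative in kidney included the proximal Hnf4a (-0.81), Slc7a9 (-0.66), Slc5a9 (-0.82) and Slco1a1 (-0.77). Cyp24a1 lay -1.15 from the other tissues, Ptrhd1 -1.91, Mmp11 -1.19 and Ccn6 -1.03. Mcoln3 passed in 12 of 12 alternatives, Ccn6, Kcnj1, Klhl3, Avpr2, Slc8a1 and Rplp1 in 11, and the others in 5 to 10. No test for an outlying library was run, since each arm has 3 libraries.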

How the results depend on the processing

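Leaving out 1 kidney library at a time gave 0 to 636 genes with an adjusted limma p under 0.05, 382 to 2760 genes higher and 213 to 1148 lower at an unadjusted p under 0.05, and 2948 to 6599 genes with arms apart, where fewer libraries make separation easier by construction. The highest counts came without empagliflozin library 2; without vehicle library 2 the 1 gene was Wbp11l1. The kidney excess passed for 43 to 783 genes. Without library 2 of both arms the counts were 573, 2845, 1131 and 8412. Median-ratio scaling gave 1 called gene, Spp1, and 677 lower at an unadjusted p under 0.05; quantile normalization gave 693 lower. All tissues in 1 fit called 209 genes. The kidney excess passed for 97 genes at a mean of at least 5 FPKM, 11 with a pseudocount of 0.1, 295 without the aorta and 90 without the libraries labelled V. The causes were not tested.

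Among segment lists, omitting single libraries moved the median of the parietal list between -0.071 and 0.375, of the thin limbs between -0.20 and 0.20, of the thick limb between -0.028 and 0.31, of the inner medulla between -0.16 and 0.17 of intercalated cells between 0.36 and 1.30, of the distal convoluted tubule between 0.90 and 1.95, of podocytes between 0.56 and 1.35, of the early proximal tubule between -0.55 and -0.32 and of the last part of the proximal tubule between -0.90 and -0.20. At a mean of at least 5 FPKM the parietal and thin limb medians were -0.49 and -0.38. Without library 2 of both arms the parietal and intercalated medians were 0.56 and 1.57. Over 49 lists and 15 settings, 692 of 734 medians stayed within 1 SD between libraries. That count is no support, because the SD is wide: the distal convoluted median stayed within it at both 0.90 and 1.95. Robust empirical Bayes, the replicate block and all tissues in 1 fit leave every median unchanged by construction.

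Of the 117 named genes, 112 kept their sign in each setting run. Many were named for a low kidney p, and a gene whose arms do not overlap cannot change sign when a library is left out. That count is therefore no support. Omitting single libraries moved Slc5a2 between -0.48 and 0.56, Slc5a1 between -0.516 and 0.093, Slc12a1 between -0.48 and 0.34, Cubn between -0.61 and 0.13 and Fabp4 between -1.53 and 0.26. Slc5a2 was -0.031 under quantile normalization. With library numbers as a replicate block 0 genes were called, and 851 were higher and 348 lower at an unadjusted p under 0.05. In deviations from the arm means, same-numbered libraries correlated across genes at -0.07, -0.36 and 0.16. With so few libraries per arm, these values cannot settle whether the numbers pair the rats.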

Other observations

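Some kidney genes of interest were too low to test, with a mean under 1 FPKM in both arms. Epo, which encodes erythropoietin, and Il6 were listed at 0 in all 6 libraries. Ptgs2, the inducible prostaglandin synthase of the macula densa, had 0.24, 0.31 and 2.1 FPKM in the empagliflozin libraries and 0.24, 0.41 and 0.53 FPKM in the vehicle libraries. Nos1, the neuronal nitric oxide synthase that is also found in the macula densa, had 0.08, 0.09 and 0.56 FPKM with empagliflozin and 0.06, 0.06 and 0.17 FPKM with vehicle. Both were highest in empagliflozin library 3.

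The 11 genes of skeletal and cardiac muscle summed to 9.95, 32.7 and 34.1 FPKM with empagliflozin and 59.1, 40.9 and 16.5 FPKM with vehicle, and Myh4 was at 0 in all 6. Adrenal cortex genes summed to 5.87, 8.31 and 3.05 FPKM with empagliflozin and 9.46, 8.04 and 7.1 FPKM with vehicle. Adipoq, made by fat cells, had 21.9, 9.26 and 17.3 FPKM with empagliflozin and 5.76, 19.5 and 8.14 FPKM with vehicle.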
